A study of Drosophila melanogaster
Mus musculus with 6 samples.

Results

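H3K36me2, dimethylation of lysine 36 on histone H3, was compared between C3H10T1/2 cells expressing K36M histone H3.1 and cells expressing wild-type histone H3.1, with attention to the stretches of genome that carry the mark and to how these break up. The members were the 10 kb intervals of the deposited table with signal in either H3K36me2 library, 248728 of 253926 intervals in all. A stretch is an unbroken run of such bins whose value reaches that library's own 75th percentile, so that each line has about 25% of its bins in stretches whatever its overall level. The groups were K36M (stably expressing FLAG-HA-tagged H3.1 with methionine in place of lysine 36) and WT (stably expressing FLAG-HA-tagged wild-type H3.1), both in C3H10T1/2 cells, mesenchymal progenitors from C3H mouse embryos, with Drosophila S2 chromatin added as an external reference. The study asked how expression of the mutant histone remodels methylation at H3K36 and H3K27. Its series holds 6 samples, of which 4 immunoprecipitated libraries are in the table, and each line is represented by 1 library per mark.

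H3K36me2 is written mainly by the NSD family of methyltransferases and by ASH1L, and covers broad domains in and between genes of euchromatin. SETD2 converts it to trimethylation in the bodies of transcribed genes, and the presence of H3K36 methylation on a histone tail impedes Polycomb repressive complex 2, which deposits H3K27me3. Histone H3 with methionine at position 36 inhibits H3K36 methyltransferases and so lowers H3K36 methylation on the other histones of the cell.

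The values, called scaled reads here, are read counts times a constant of each library, assumed to hold the spike-in correction. The K36M library held 50022100 reads in the bins used and the WT library 57939301, and the 75th percentile lay at 10.5 scaled reads per bin in K36M and at 219 in WT. These thresholds rest on 134 reads in K36M and 345 reads in WT, which gives a 95% counting half-width of 16.9% in K36M and 10.6% in WT. Bins just inside the threshold had medians of 10.7 in K36M and 222 in WT, and bins just outside had 10.1 in K36M and 216 in WT. With 1 library per line there are no replicates, so the lines are compared by value alone, with no test and no p-value. Intervals in brackets are 95% counting intervals only, and the spread over chromosomes describes the genome and does not stand for replicate error. In bulk chromatin, fewer cells carrying a mark and less of it per cell cannot be told apart. The cell type could not be checked against expression markers, and the table has no value that measures the mutant histone itself.

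The bins richest in H3K36me2 were almost entirely different ones in the 2 lines. Of the 24912 bins at or above the 90th percentile in K36M and the 24896 in WT, 680 were shared, 2.73% of each set, whereas about 10% of all bins belong to either set. At the 95th percentile 142 bins were shared, 1.14% of each set, against about 5% of all bins in each set. The highest share of the WT set there was 16.7%, on X. Lower thresholds gave the opposite picture. At the 75th percentile 24348 bins were shared, 39.1% of the 62195 K36M bins and 39.1% of the 62310 WT bins, above the 25.01% of all bins that lie in K36M stretches. At the median 94482 bins were shared, 74.3% of the K36M set and 75.9% of the WT set. Of all bins, 51.1% were in that K36M set and 50.1% in that WT set. The chromosomes behaved alike: the shared part of the WT set was below the chromosome's own K36M share on 19 of 20 chromosomes at the 90th percentile, with X as the exception at 11.3%, and above it on 20 of 20 at the 75th percentile. These shares depend on ranks within a library and therefore not on the library factors.

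The level in WT shows where the overlap came from. In the lowest 3 deciles of WT H3K36me2, between 0.414% and 1.52% of bins lay in K36M stretches, and in the fourth decile 7.35% did. From the fifth decile up the share was between 31.1% and 45.6%, highest in the seventh decile, whose median was 165 scaled reads per bin in WT, and it was 36.3% in the highest decile, where the WT median was 413. The strongest K36M bins sat at middling WT levels. The 90th percentile of K36M values was 89.3 scaled reads per bin in the sixth WT decile and 22.8 in the tenth, and the bins that reached the genome-wide 90th percentile of K36M had a median of 72.9 in K36M and 132 in WT. The bins that reached the WT 90th percentile had a median of 8.66 in K36M and 413 in WT.

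**Figure D1:**
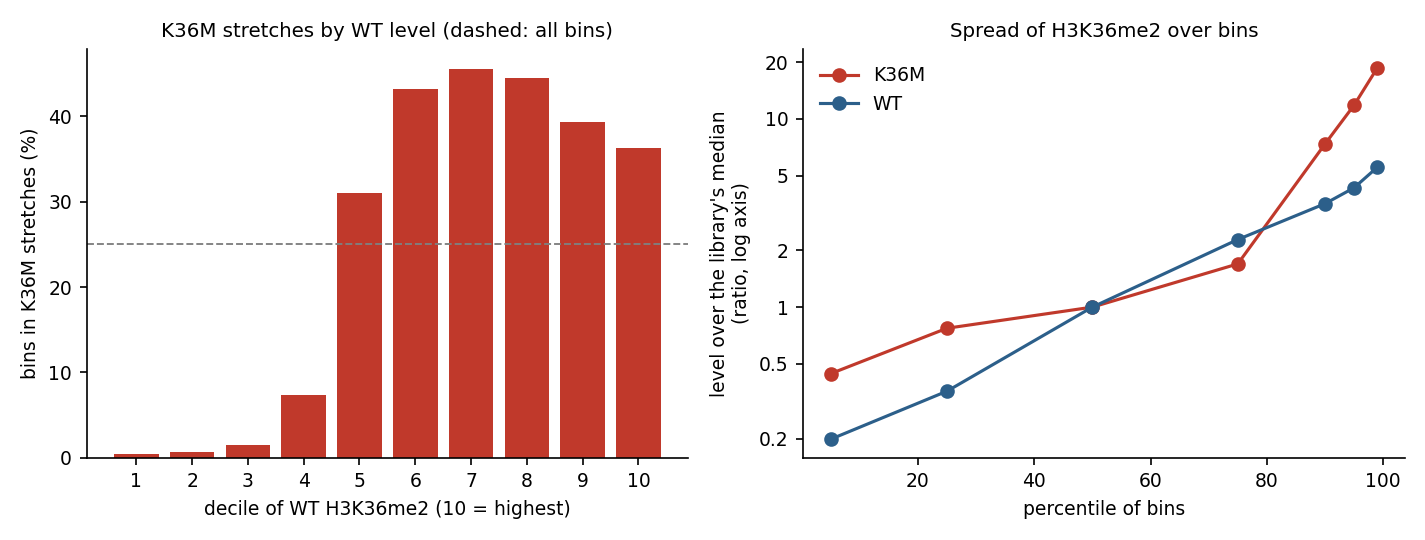
Left, share of 10 kb bins lying in K36M stretches (%) for each decile of WT H3K36me2, with the share over all bins as a dashed line. The share is under 2% in the lowest 3 deciles and highest, at 45.6%, in the seventh. Right, H3K36me2 level at 7 percentiles of bins divided by the library's own median (log axis) for K36M and WT, 1 library each; K36M is flatter than WT below the 75th percentile and steeper above it.

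The shape of the distribution differed in the same way. In K36M the 25th percentile was 4.76 scaled reads per bin, the median 6.16, the 75th percentile 10.5 and the 90th percentile 45.3. In WT these were 34.3, 96.0, 219 and 340. Relative to its own median, the K36M library reached 1.70 at the 75th percentile and 18.7 at the 99th, and the WT library 2.28 and 5.54. Most K36M bins thus lay on a low and narrow floor from which a minority stood out, while WT values were graded over the genome. K36M stretches held 73.6% of the K36M reads and WT stretches 60.3% of the WT reads, with counting intervals under 0.1 percentage points wide. The mean in K36M was 46.2 scaled reads per bin inside K36M stretches and 5.52 outside, a contrast of 8.37; the mean in WT was 357 inside WT stretches and 78.4 outside, a contrast of 4.55.

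On the absolute scale set by the deposited factors, hardly any K36M bin reached the level that defines a WT stretch. The value of the WT 75th percentile was met by 46 K36M bins, in 33 runs with a mean length of 13.9 kb and a longest run of 40 kb. Of these 46 bins, 41 (89.1%) lay inside WT stretches, against 25.05% of all bins. Some of the 46 held values far above the 99th percentiles of both libraries. Of the bins in K36M stretches, 49.3% lay below the WT 25th percentile of 34.3 scaled reads per bin and 91.1% below the WT median of 96.0. With libraries brought to equal totals, 40022 K36M bins met the WT threshold. These formed 8989 stretches with a mean length of 44.5 kb and a longest of 610 kb, against 14134 stretches with a mean length of 44.1 kb and a longest of 1420 kb in WT, and 25.01% of their bins lay in WT stretches, no more than the 25.05% of all bins that do. Library totals remove any genome-wide difference by construction, so this count bears on arrangement and not on amount.

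The lengths of stretches differed modestly, and their order depended on the threshold. K36M had 12042 stretches with a mean length of 51.6 kb and WT had 14134 with a mean length of 44.1 kb, a ratio of 1.17. The mean was longer in K36M on 15 of 20 chromosomes, with ratios from 0.844 on chromosome 13 to 1.67 on chromosome 5. The length-weighted median, the length of the stretch in which the median stretch bin lies, was 100 kb in K36M and 90 kb in WT. Stretches of intermediate length were more common in K36M: those of 50 to 90 kb held 26.1% of stretch bins in K36M and 22.2% in WT, and those of 100 to 190 kb held 31.8% in K36M and 24.9% in WT. Single bins held 6.29% of stretch bins in K36M and 8.63% in WT, and stretches of 200 kb or more held 19.2% in K36M and 22.8% in WT. At the upper end K36M fell short of WT, with 12 stretches of 500 kb or more against 29, and 0 of 1000 kb or more against 2. The longest measured 760 kb in K36M and 1420 kb in WT. The longest WT stretch depends on how extreme bins are treated. Leaving out the most extreme bins of either library, of which it holds some, brought the longest in WT to 860 kb, while the longest in K36M remained at 760 kb. A stretch ends at each bin left out, so this shortening follows from the filter.

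At the median as threshold the order was reversed. K36M then had 27321 stretches with a mean length of 46.5 kb and WT had 13369 with a mean length of 93.1 kb, a ratio of 0.500 that was below 1 on 20 of 20 chromosomes. The order at the 75th percentile was also reversed by closing small gaps: when stretches were joined across 1 bin, the mean lengths were 69.6 kb in K36M and 71.1 kb in WT, and the length-weighted medians 130 kb in K36M and 170 kb in WT. Gaps of a single bin made up 28.5% of the gaps between neighbouring stretches in K36M and 39.9% in WT. WT stretches at the 75th percentile were therefore more often interrupted by single bins, and K36M had fewer stretches, which seldom merged into very long ones. The first bin outside WT stretches of at least 100 kb had lower medians than the second in both lines and both marks. Whether single bins of low coverage account for part of these breaks was not tested. Thinning the WT reads to the number behind the K36M threshold left the ratio of mean lengths at 1.20.

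**Figure D2:**
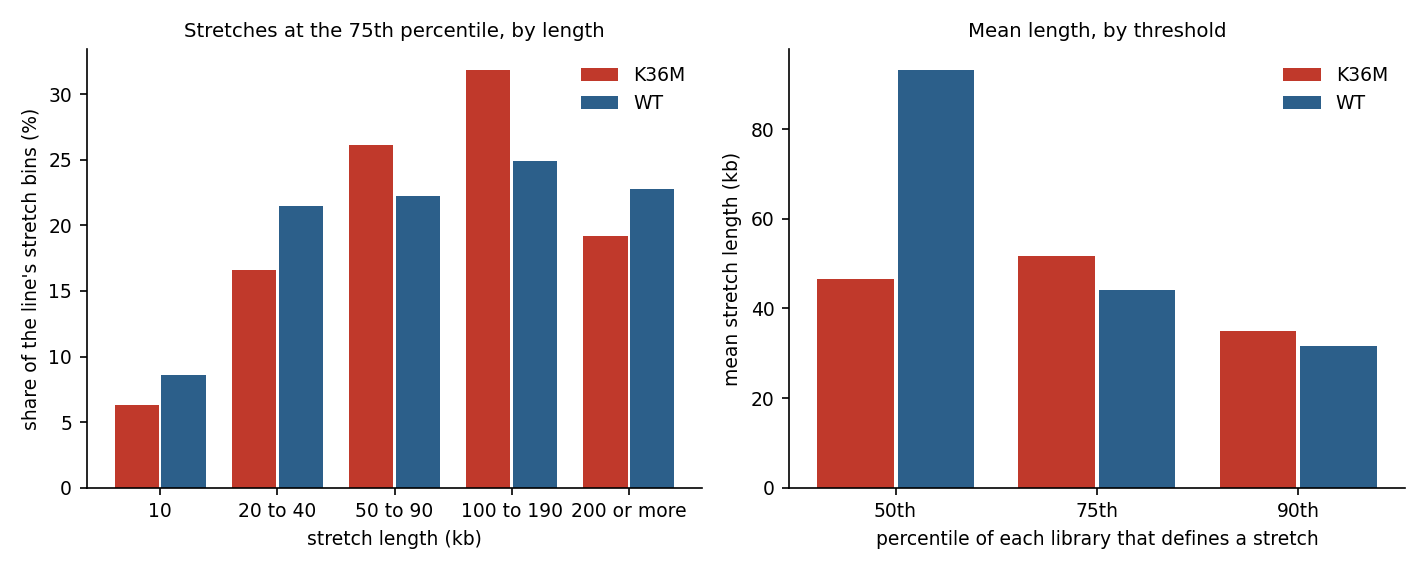
Left, share of each line's stretch bins (%) by stretch length (kb) at the 75th percentile of each library, K36M and WT, 1 library each; stretches of 50 to 190 kb hold more of the K36M bins and the shortest and longest classes more of the WT bins. Right, mean stretch length (kb) when stretches are defined at the 50th, 75th or 90th percentile of each library; K36M is below WT at the 50th (46.5 against 93.1 kb) and above it at the 75th (51.6 against 44.1 kb).

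In each line the longer stretches had the higher level of that line. In K36M stretches, taken from single bins through 20 to 40 kb, 50 to 90 kb and 100 to 190 kb to 200 kb or more, the median K36M level was 12.5, 20.4, 36.5, 44.7 and 45.9 scaled reads per bin, and the WT level of the same bins was 288, 205, 168, 174 and 196. The WT level was thus highest in the single bins and lowest in stretches of 50 to 90 kb. Along WT stretches, the K36M level was 9.98 in single bins and 7.64 in stretches of 200 kb or more, although the WT level of these was 244 in single bins and 396 in the long stretches. By ratio of mean levels, stretches of 200 kb or more were 33.1-fold lower in K36M, those of 100 to 190 kb 24.5-fold, those of 50 to 90 kb 19.7-fold and those of 20 to 40 kb 16.2-fold. Inside all WT stretches the mean was 16.7 scaled reads per bin in K36M and 357 in WT, 21.4-fold lower, and outside them it was 15.4 in K36M and 78.4 in WT, 5.10-fold lower. Within the K36M library, regions richest in WT thus differed little in mean level from the remainder, though their median was higher. Medians gave larger folds: inside WT stretches the median was 8.66 scaled reads per bin in K36M and 312 in WT, a ratio of 0.0277, and outside it was 5.62 in K36M and 51.5 in WT, a ratio of 0.109. With library totals, K36M over WT by means was 0.441 inside and turned to 1.85 outside. The stretches were chosen by the values of these libraries, so these folds describe them and do not test them.

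By a rule of size, a difference of at least 2-fold on log2(reads + 0.5) times the factor among bins with at least 20 reads over both lines, H3K36me2 was lower in K36M in 93.5% of 246035 bins and higher in 0.0378% (93 bins). Among WT stretch bins 99.7% were lower by this rule, and among K36M stretch bins 74.5%. A fall of at least 8-fold was met by 55.1% of all bins, by 90.9% of WT stretch bins and by 38.7% of K36M stretch bins, while 0.000406% of all bins (1 bin) were higher by that much. Scaled to library totals, the 2-fold rule gave 31.9% of all bins lower and 16.3% higher, and the 8-fold rule 1.27% lower and 2.99% higher. Of WT stretch bins 77.3% were then lower and 4.00% higher, and of K36M stretch bins 16.5% were lower and 47.9% higher. All these shares use the contrast that defined the stretches.

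Long WT stretches held K36M stretches mostly as short pieces. Of 1656 WT stretches of at least 100 kb, 864 (52.2%) held 2 or more K36M stretches, 481 (29.0%) held 1, and 311 (18.8%) held none. K36M stretches covered all of 106 (6.40%). The median share covered was 28.6% (interquartile range 7.34% to 60.0%), and the longest piece had a median length of 30 kb. Of the bins in these WT stretches 33.3% lay in K36M stretches, against 25.01% of all bins. Longer WT stretches were covered less. Those of at least 500 kb, 29 in number, had a median of 18.3% covered and a longest piece of 40 kb. Of the 29, 24 held 2 or more pieces. K36M stretches held 20.0% of their bins, below the share over all bins. The share with 2 or more pieces was lower, at 32.0%, when values were averaged over 5 bins, and 2.91% when stretches were defined at the 90th percentile, where 85.2% of long WT stretches held no K36M stretch at all. Over WT stretches of any length, shared bins stood nearer the K36M threshold of 10.5 than the other K36M stretch bins did. Bins shared by both sets of stretches had a median of 19.6 scaled reads per bin in K36M (interquartile range 13.5 to 34.4). The K36M stretch bins outside WT stretches had 50.5 (27.2 to 77.8).

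A higher threshold within WT itself also split the stretches, but left longer pieces. At its own 90th percentile, WT kept 39.96% of its stretch bins, close to the 39.1% that K36M kept. Long WT stretches with 2 or more pieces were 52.2% for K36M, against 70.6% for the WT 90th percentile. In WT stretches of at least 500 kb, K36M pieces covered a median of 18.3% with a longest piece of 40 kb, against 89.6% and 280 kb for the WT 90th percentile. Over all 1656 long stretches the medians were 28.6% and 30 kb for K36M, against 57.1% and 50 kb for WT. Long WT stretches without any piece were 18.8% for K36M, against 5.56% for WT. The WT values come from the library that defined the stretches and are a description of nested thresholds.

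**Figure D3:**
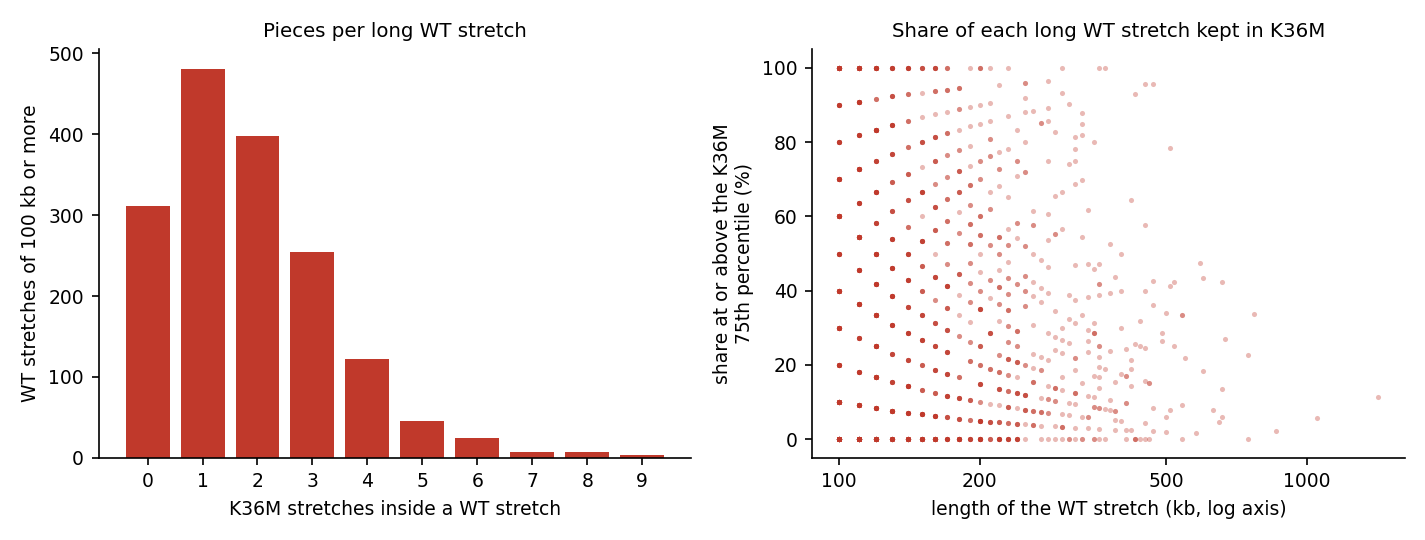
Left, number of K36M stretches lying inside each of the 1656 WT stretches of at least 100 kb, as a count of WT stretches; 311 hold none and 864 hold 2 or more. Right, share of each such WT stretch at or above the K36M 75th percentile (%) against its length (kb, log axis), 1 point per WT stretch, with overlapping points darker; the 29 of at least 500 kb have a median of 18.3%.

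Seen from the other side, K36M stretches were sorted by whether they lay in WT stretches. Of all 12042 K36M stretches, 3844 (31.9%) lay partly in WT stretches, 3911 (32.5%) shared no bin with one and 4287 (35.6%) lay wholly inside. A single bin can only lie inside or outside, and a longer stretch more easily crosses a limit, so these shares shift with length by construction. The median share of WT stretch bins was 40% over all K36M stretches, 25% from 50 kb, 30% from 100 kb and 38.7% from 200 kb. Of all bins, 25.05% lay in WT stretches. Of 1944 K36M stretches of at least 100 kb, 1584 (81.5%) lay partly in WT stretches. Of the same 1944, 287 (14.8%) shared no bin with one and 73 (3.76%) lay wholly inside. Where both sides had an unbroken 100 kb, as for 1135 of these stretches, the K36M level was 50.5 scaled reads per bin inside and 14.7 in the flanks (medians over stretches), and it was higher inside in 94.6%. The WT level was 180 inside and 196 in the flanks, and it was higher inside in 43.2%. For the 920 long WT stretches with unbroken sides, the K36M level was 10.3 inside and 18.99 in the flanks, and the WT level 350 inside and 238 in the flanks. The K36M level was higher inside the stretch than beside it in 33.8% of these WT stretches.

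The ends of stretches were sharp in K36M and met only small steps in the other library. Across 3888 ends of long K36M stretches, the K36M median was 44.3 scaled reads per bin in the second bin inside and 7.80 in the second bin outside, a step of 5.68-fold. The WT median at the same places was 177 inside and 211 outside, a ratio of 0.843. Across the 3312 ends of long WT stretches, the K36M median was 8.23 inside and 8.03 outside, a ratio of 1.02, while the WT median was 342 inside and 228 outside, a ratio of 1.503. Beyond the ends, the K36M median fell to 7.80 within 1 bin and stayed between 7.80 and 8.74 as far out as was measured. That range lies above the K36M genome median of 6.16. The upper quartile rose from 9.05 in the first bin outside to 25.4 at 95 kb. The WT library dipped to 176 in the first bin outside a WT stretch and then stood between 228 and 250 farther out. The selection of a bin below the threshold at each end is part of that dip and of the K36M step. At the ends of WT stretches the K36M library also dipped, from 8.03 in the second bin outside to 6.40 in the first. Median H3K27me3 was lower in that first bin too, at 19.2 against 28.0 in K36M and 3.597 against 5.45 in WT. Whether low coverage of this bin accounts for part of these drops was not tested.

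**Figure D4:**
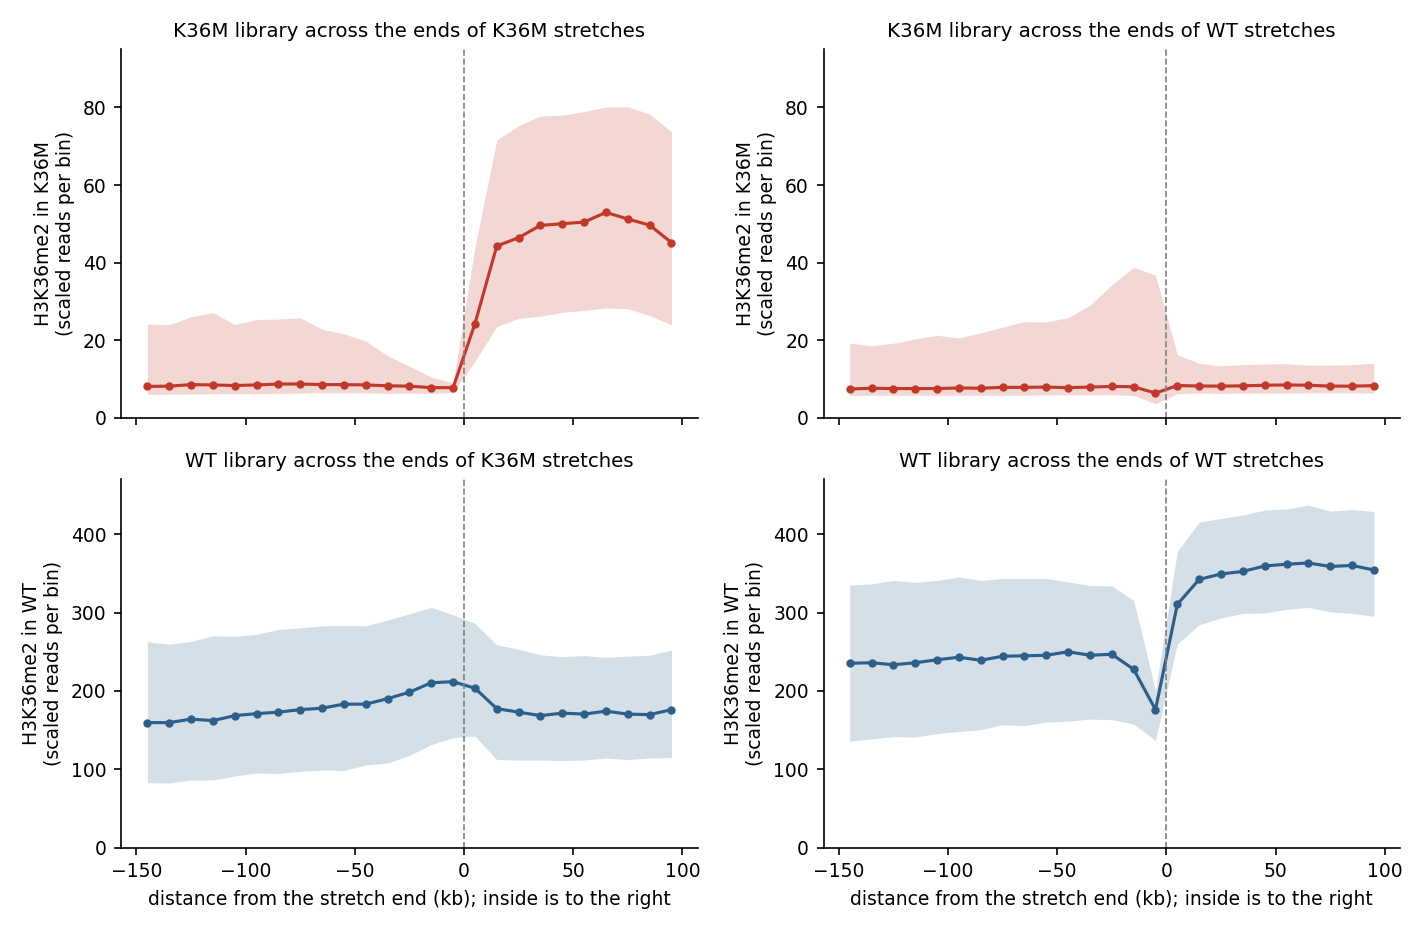
Median H3K36me2 (scaled reads per bin, line and points) and interquartile range (shading) by distance from the ends of stretches of at least 100 kb (kb, inside to the right), with both ends pooled. Columns are the ends of K36M and of WT stretches and rows the K36M and WT libraries, with different vertical scales. K36M steps from 44.3 in the second bin inside to 7.80 in the second bin outside at its own ends. At the ends of WT stretches it is 8.23 against 8.03 in these bins, with a dip to 6.40 in the first bin outside.

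H3K27me3, which was not used to define stretches, changed at the ends of K36M stretches in both lines. In the second bin inside K36M stretches, median H3K27me3 was 15.3 scaled reads per bin in K36M and 2.51 in WT. In the second bin outside it was 44.8 in K36M and 11.99 in WT. Inside was therefore lower than outside by 2.92-fold in K36M and 4.78-fold in WT, at places where WT H3K36me2 inside was 0.843 of that outside. At the ends of WT stretches the H3K27me3 medians were 39.8 inside and 28.0 outside in K36M, and 5.89 inside and 5.45 outside in WT. These contrasts are within a library and do not depend on its factor.

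The 4 classes of bins formed by the stretches of both lines differed in both marks. The 24348 shared bins had median H3K36me2 of 19.6 scaled reads per bin in K36M and 303 in WT. The 37962 bins in WT stretches alone had 6.94 in K36M and 319 in WT, 48.4-fold lower by ratio of means. The 37847 bins in K36M stretches alone had 50.5 in K36M and 132 in WT, 2.38-fold lower, and K36M was above WT in 4851 of them (12.8%). Scaled to library totals, these bins turned to a ratio of 3.97, and K36M was above WT in 89.5%. The 148571 bins in neither had 5.15 in K36M and 39.4 in WT, 12.6-fold lower. K36M was above WT in 0.232% of them, and in 58.7% with library totals. In shared bins these shares were 0.0164% and 28.5%, and in bins of WT stretches alone 0% and 0%. The classes were formed from these H3K36me2 values, so the ratios and shares follow in part from that choice. Median H3K27me3 in bins of K36M stretches alone was 12.1 in K36M and 2.40 in WT, lower than in the shared bins, at 31.9 in K36M and 3.597 in WT, and than in bins of WT stretches alone, at 42.5 in K36M and 8.07 in WT. In the bins in neither, median H3K27me3 was 30.4 in K36M and 8.07 in WT, the same WT value as in bins of WT stretches alone. The ratio of H3K27me3 medians was 8.86 in the shared bins and 5.27 in those of WT stretches alone. It was 5.04 in those of K36M stretches alone and lowest, at 3.77, in the bins in neither. With library totals these 4 ratios were 3.52, 2.09, 2.01 and 1.498, in that order.

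The longest WT stretches show how little was left of broad domains. Regions are named from chromosomes other than 18 and Y, so the third longest WT stretch, 860 kb on chromosome 18, is not described. The longest, on chromosome 11 at 111220001 to 112640000 (mm9), spanned 1420 kb. Its bins ran from 3.74 to 20.0 scaled reads in K36M with a mean of 8.28, and from 250 to 927 in WT with a mean of 613, 74.1-fold lower (72.9 to 75.4). Its 7 K36M stretches covered 11.3% of it, and the longest of them measured 40 kb. The stretch on chromosome 10 at 37430001 to 38480000, 1050 kb long, had a mean of 6.66 in K36M and 513 in WT, 77.0-fold lower (75.4 to 78.7), and 4 K36M stretches covered 5.71% of it. In both stretches every K36M bin was below every WT bin. WT stretch bins lie at or above 219 by the rule, a value that 46 K36M bins in the genome reached. This separation therefore follows largely from the rule.

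Other long stretches kept strong islands. On chromosome 15 at 62080001 to 62850000, 770 kb long, the mean was 15.4 in K36M and 469 in WT, but K36M bins ran from 3.98 to 139, and 9 stretches, the longest 90 kb, covered 33.8%. On chromosome 15 at 54100001 to 54770000, 6 K36M stretches covered 26.9%, with a longest piece of 100 kb and a highest bin of 99.92 in K36M. On chromosome 14 at 25540001 to 26290000, 8 stretches covered 22.7%, with means of 12.1 in K36M and 402 in WT. The number of 9 pieces was the highest found, and was shared by 3 further stretches. The stretch at 15880001 to 16540000 on chromosome 12 was covered to 42.4%, with a median of 9.20 in K36M and 515 in WT. That at 83240001 to 83830000 on chromosome 10 was covered to 47.5%, with a median of 10.3 in K36M and 667 in WT. That at 14880001 to 15280000 on chromosome 16 was covered to 50.0%, with a median of 10.4 in K36M and 507 in WT. The K36M medians of these 3 lie within the counting half-width of the threshold of 10.5, so the number of their pieces is uncertain.

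Some long WT stretches held no K36M stretch. On chromosome 3 at 150520001 to 151270000, 750 kb long, K36M bins ran from 2.73 to 10.2 scaled reads with a mean of 4.84, below the K36M genome median of 6.16, and WT bins from 223 to 514 with a mean of 362. The stretch on chromosome 4 at 55880001 to 56420000 had means of 6.78 in K36M and 514 in WT. Means were 5.79 in K36M and 413 in WT for the stretch at 25680001 to 26140000 on chromosome 13, and 5.55 in K36M and 360 in WT for that at 106980001 to 107430000 on chromosome 2. All 4 were between 64.9-fold and 75.8-fold lower in K36M. Their mean H3K27me3 differed widely in K36M, from 15.4 on chromosome 13 to 61.3 on chromosome 4, and was between 3.78 and 7.75 in WT.

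At the other extreme, 8 of the 476 WT stretches of at least 200 kb were covered by K36M stretches from end to end. The longest of these, on chromosome 16 at 24670001 to 25040000, had a mean of 88.0 scaled reads per bin in K36M and 324 in WT, 3.68-fold lower (3.62 to 3.75). The stretch on chromosome 1 at 33830001 to 34130000 had the highest K36M mean of the named regions, 138 in K36M and 641 in WT, 4.64-fold lower, and its highest bin reached 458 in K36M. Coverage was at a lower level in the stretch at 145070001 to 145430000 on chromosome 2, with means of 20.6 in K36M and 359 in WT, and in that at 55420001 to 55630000 on chromosome 19, with 28.7 in K36M and 288 in WT. Mean H3K27me3 in these 4 stretches was between 26.1 and 78.7 in K36M and between 2.76 and 15.0 in WT.

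The longest K36M stretches ran through several shorter WT stretches. The longest, 760 kb on chromosome 16 at 33820001 to 34580000, had bins from 10.8 to 107 scaled reads in K36M with a mean of 57.4, and from 50.2 to 391.8 in WT with a mean of 225, 3.92-fold lower (3.86 to 3.98). It crossed 11 WT stretches, which made up 55.3% of it. The next, 610 kb on chromosome 6 at 98870001 to 99480000, had means of 59.6 in K36M and 166 in WT, and only 4.92% of it lay in WT stretches. The stretch on chromosome 16 at 24450001 to 25040000, which contains the fully covered one above, had 88.7 in K36M and 293 in WT. Of the remaining 3, the stretch at 87040001 to 87600000 on chromosome 14 was 4.30-fold lower in K36M, that at 35290001 to 35850000 on chromosome 15 was 8.22-fold lower, and that at 129590001 to 130140000 on chromosome 8 was 8.58-fold lower. All 6 had higher values in K36M than in WT when scaled to library totals, with ratios from 1.10 to 3.40, and their mean H3K27me3 was between 12.4 and 22.8 in K36M and between 1.73 and 5.06 in WT.

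**Figure D5:**
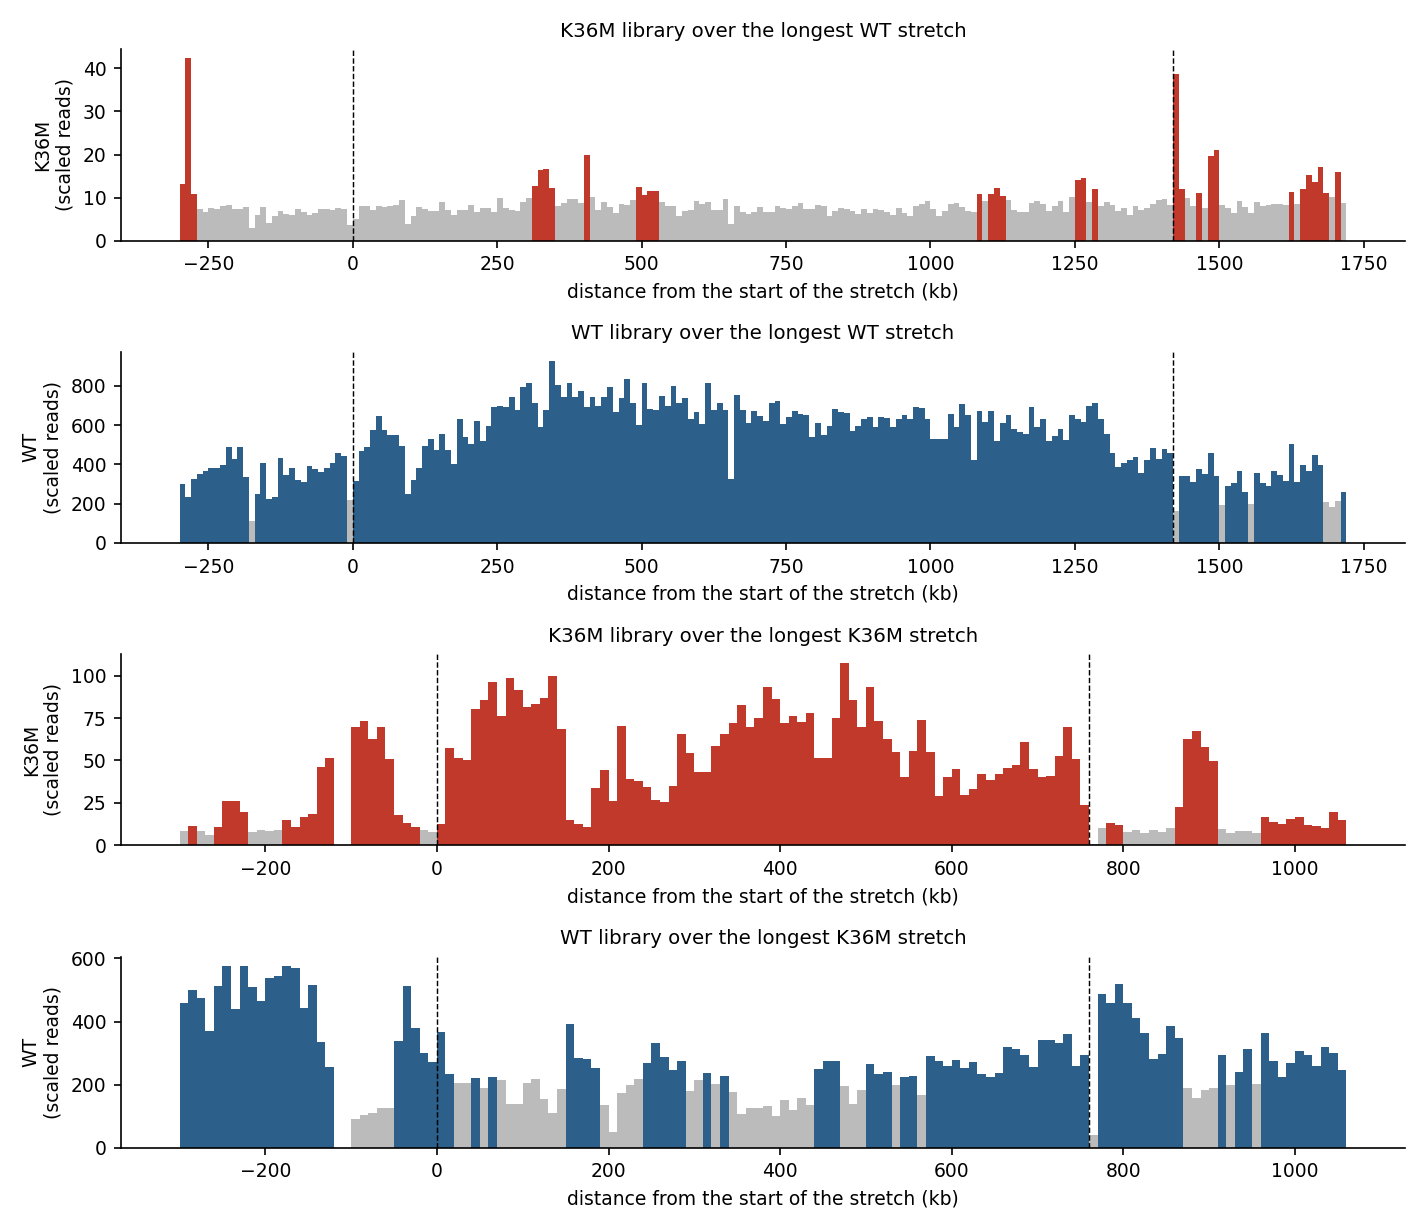
H3K36me2 (scaled reads per 10 kb bin) over the longest WT stretch, on chromosome 11, and the longest K36M stretch, on chromosome 16, each with 300 kb on both sides, against distance from the start of the stretch (kb); dashed lines mark its limits. Coloured bars are bins in a stretch of that line and grey bars are other bins; vertical scales differ, and K36M stays at or below 20.0 inside the WT stretch while WT varies from 50.2 to 391.8 inside the K36M stretch.

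The 287 long K36M stretches outside any WT stretch include the named regions with the smallest gaps between the lines. The longest, 330 kb on chromosome 5 at 48370001 to 48700000, had bins from 47.5 to 150 scaled reads in K36M with a mean of 95.5, and from 64.2 to 207 in WT with a mean of 133, 1.40-fold lower (1.36 to 1.43), so that the ranges overlapped. The stretch at 89480001 to 89770000 on chromosome 7 had means of 67.2 in K36M and 108 in WT, 1.61-fold lower, and that at 124000001 to 124280000 on chromosome 5 had 51.1 in K36M and 91.6 in WT, 1.79-fold lower. Mean H3K27me3 in these 3 autosomal stretches was between 7.14 and 15.6 in K36M and between 1.73 and 1.90 in WT. The other 3 of the 6 were on X, at 90550001 to 90880000, 139950001 to 140260000 and 99540001 to 99840000. In that order, their means were 47.1, 27.9 and 33.1 in K36M and 133, 131 and 112 in WT, and their mean H3K27me3 was high in both lines, between 52.3 and 67.1 in K36M and between 20.4 and 33.2 in WT.

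Neighbouring bins resembled each other less in K36M. Spearman's rho between bins of the same library was 0.77 in K36M and 0.91 in WT at 10 kb (244273 pairs), 0.55 in K36M and 0.77 in WT at 100 kb (239660 pairs), and 0.23 in K36M and 0.32 in WT at 1000 kb. At 100 kb the K36M value was lower on 20 of 20 chromosomes, from 0.43 to 0.59 in K36M and from 0.66 to 0.80 in WT. These coefficients describe bins of 1 library that share its depth and base composition, and the K36M library had fewer reads in its median bin, 79 against 151. After the WT reads were thinned to the K36M total, the difference at 100 kb was -0.22, as without thinning. That thinning matched only the totals, from 57939301 reads in WT to the 50022100 of K36M, and not the reads of the median bin. The part of counting noise in the difference was therefore not tested.

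Chromosomes differed more in WT stretches than in K36M stretches. The share of a chromosome's bins in stretches ranged from 18.9% to 34.0% in K36M and from 13.7% to 41.2% in WT over the 19 autosomes. The highest shares were on chromosome 11 in K36M and on chromosome 13 in WT. Chromosome 13 had 26.9% of its bins in K36M stretches and 41.2% in WT stretches, and chromosome 7 had 24.6% in K36M and 13.7% in WT. X had the fewest stretch bins in each line, 13.9% in K36M and 5.66% in WT. The part of WT stretch bins that lay in K36M stretches ran from 22.5% on chromosome 3 to 54.2% on chromosome 17 and exceeded the chromosome's own K36M share on 20 of 20.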

How the data were processed

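Per the labels' protocols, mouse chromatin was digested to mononucleosomes, Drosophila S2 chromatin amounting to 5% of it was added, and H3K36me2 or H3K27me3 was immunoprecipitated. Another label gives equal parts of mouse and fly cells, and the labels do not settle the ratio. The submitters' processing notes name Bowtie 1.0.0, mm9 and dm6; no source used here tells how reads were counted and filtered or how the factors arose. Values in the deposited table are coverage signal per interval, scaled by the authors. Dividing by a constant of the library, for H3K36me2 0.078 in K36M and 0.636 in WT, gave whole reads (tolerance 0.01) for 100% of values; with 1 library per group no count test could be fitted. Of 249267 intervals of 10 kb, 539 without H3K36me2 signal in either line were left out, as were 4659 of other widths, at which stretches end. Input was not analysed here. No mouse annotation or genome was used, so regions have positions (1-based) and no genes.

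Stretches, overlaps, levels and rank correlations were computed from scaled reads or reads, with counting intervals from the binomial split of reads (Wilson, 95%). The code was tested on simulated data with planted stretches. Named regions are the 6 longest WT stretches, the 6 longest in K36M, the 6 longest in K36M sharing no WT bin and, among WT stretches of at least 200 kb, the 4 with most pieces, the 4 most covered and the 4 longest without a piece, all taken from chromosomes other than Y and 18; 18 stays in all counts. The bins compared, the rule for stretches and the regions were chosen with earlier results of these data known. Alternatives were other percentiles, joined gaps, averaged or paired bins, thinned WT reads, wide intervals, level filters, autosomes, extreme bins, library totals, background subtraction and another coefficient; ratios of medians and those for H3K27me3 were chosen after seeing the data. Software was Python 3.11.15 with scipy 1.17.1, numpy 2.4.6, matplotlib 3.10.9 and pandas 2.3.3.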

Additional observations from a re-analysis of the deposited data

Results flagged for a closer look

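Signal was present in intervals that the comparisons did not use: intervals wider or narrower than 10 kb held 3.77% of the H3K36me2 reads of K36M and 2.82% of those of WT. Added with their value per 10 kb, they left the ratio of mean stretch lengths at 1.22 and the share of WT stretch bins kept at 39.2%.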

How the results depend on the processing

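The 14 results were recomputed to give 102 values. Of these, 60 lay within the spread over 20 chromosomes (counts, within 1.5 times), 32 moved further and 10 reversed. No paired analysis was possible because each group has 1 library, and for the same reason none could be left out. The ratio of mean stretch lengths, K36M over WT, reversed to 0.500 at the 50th percentile, 0.979 and 0.920 when stretches were joined across 1 or up to 3 bins, and 0.961 with 5 bins averaged; the ratio of length-weighted medians reversed to 0.591, 0.765, 0.769 and 0.682 under the same settings and to 0.750 in 20 kb bins. The share of WT stretch bins kept was 75.9% at the 50th percentile, 2.73% at the 90th and 46.9% across 3 bins. Long WT stretches with 2 or more pieces were 65.0%, 2.91% and 38.1% under these settings, 32.0% with averaging, 34.4% in 20 kb bins, and 35.4% or 66.6% when long meant 50 or 200 kb; those without a piece were 1.71%, 85.2% and 10.7% under the first 3. The ratio of means inside WT stretches was 0.441 with library totals, 0.0861 at the WT 50th percentile, 0.0327 at the 90th and 0.0277 from medians; outside it reversed to 1.85 with library totals and was 0.231, 0.141 and 0.109 under the others. K36M bins at the WT threshold numbered 40022 with library totals, 5547 at the WT 50th percentile, 20 at the 90th and 0 without extreme bins, since that filter removes the highest K36M values. The difference in neighbour correlation was -0.32 with Pearson's coefficient. A 4-fold rule left 14 bins higher, and library totals gave 78400 bins lower and 40035 higher. H3K27me3 ratios with library totals were 2.09 in bins of WT stretches alone, 2.01 in those of K36M stretches alone and 3.52 in shared bins, and the first was 8.12 at the 90th percentile. Where no construction is named, the cause was not tested. Thinning the WT reads changed none of the stretch results beyond the spread.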

Other observations

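The 33 runs in which K36M met the value of the WT 75th percentile were of different kinds. A single bin on chromosome 2 at 98500001 to 98510000 held 53088 scaled reads in K36M and 949818 in WT, and bins at the start of the sequence of chromosome 9, at 3000001 to 3040000, held a mean of 1618 in K36M and 23335 in WT; these values are far above the 99th percentiles of 115 in K36M and 532 in WT. In contrast, the 40 kb on chromosome 1 at 33830001 to 33870000 had a mean of 352 in K36M and 423 in WT, a ratio of 0.831, within a WT stretch that K36M stretches covered in full. On chromosome 16, 3 runs between 52380001 and 52450000 had means of 223 to 283 in K36M and of 399 to 437 in WT.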
